A study of Mus musculus with 12 samples.

Results

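The genes described here encode 2 secreted Wnt ligands (Wnt4 and Wnt9a), 3 Frizzled receptors (Fzd3, Fzd5 and Fzd7), 2 co-receptors (Lrp5 and Lrp6), the cytoplasmic protein Dvl2, the scaffold Axin2 and beta-catenin (Ctnnb1). They were selected by symbol and make up 10 of the 24562 genes in the deposited tables, and all 10 were among the 13943 genes with enough counts to be tested. The choice was made with the cohort comparisons of these data known. The levels, fold changes and calls of the 10 genes are therefore given as a description, with no p-value.

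The 12 RNA-Seq libraries each came from a pool of 18 to 45 denuded oocytes with an intact germinal vesicle. The oocytes were isolated from the antral follicles of CD-1 females that had received no hormone. The 4 cohorts had n = 3 pools each and are named by postnatal day (PND). They were PND 13 and PND 40, together with a small and a large cohort at PND 16, divided by body weight. The labels name no transgene or other treatment. PND 16 large and PND 40 oocytes are grouped as meiotically competent, meaning able to resume meiosis and reach metaphase II, and PND 13 and PND 16 small oocytes as non-competent. The questions were how transcript levels differ with competence and, between PND 16 large and PND 40, with gamete quality.

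Wnt proteins are lipid-modified secreted ligands that bind a Frizzled receptor together with Lrp5 or Lrp6. Binding recruits Dishevelled and holds back the destruction complex of Axin, Apc, Gsk3 and casein kinase, which otherwise marks beta-catenin for breakdown. Stabilised beta-catenin enters the nucleus and works with TCF/LEF factors on target genes such as Axin2, while other branches of the pathway control cell polarity and movement without it. In the ovary, Wnt4 is known from the somatic cells, where it is needed for female development of the gonad and for follicle growth.

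The total count per pool was 17671193 to 27418358. Levels are given as CPM, the counts scaled to a common library size after TMM scaling between pools, and as mean ± SD over pools. All 12 oocyte markers were at 1 CPM or more in each pool, and their summed level was 15400 to 20150 CPM. Markers of granulosa cells, the somatic cells that surround the oocyte, were unevenly spread. The 13 granulosa markers summed to 452 to 544 CPM in PND 13 replicates 1 and 3 and PND 16 small replicate 2, and to 130 to 250.2 CPM in the other 9 pools. Of the 13, 9 were higher in each of these 3 pools than in any other pool. Among them were the hormone and receptor genes Amh, Inha and Fshr, with Inha at 97.05 to 143.3 against 2.34 to 20.7 CPM. Nr5a2, Kitl, Cyp19a1 and Slc38a3 did not divide the pools in this way. In the other 9 pools Nr5a2 was at 87.9 to 134 CPM, Kitl at 10.8 to 53.6 CPM and Cyp19a1 at 12.7 to 24.3 CPM. These genes are part of the sum, also in the correlations below. None of the 13 was at 0 in these 3 pools, whereas 1 was at 0 in PND 13 replicate 2 and 1 in PND 16 small replicate 1. The 9 markers of theca and stroma summed to 34.9 CPM in PND 16 small replicate 3 and 46.9 CPM in PND 16 large replicate 2, against 6.21 to 14.8 CPM in the other pools. The 5 markers of endothelium and blood summed to 52.2 to 64.6 CPM. In each pool, 1 or 2 of them were at 1 CPM or more. Nearly all of this sum was Pecam1, at 52 to 64.6 CPM. Cdh5 was at 0.143 CPM or less, Ptprc at 1.34 CPM or less, and Hba-a1 and Hbb-bs were at 0 in each pool. The part of these markers in the results was not tested, apart from the values without the 3 pools given below. In pools of oocytes, fewer cells of another type and less RNA per cell cannot be told apart.

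Of the 10 genes, 7 had a promoter sequence in the RefSeq table of GRCm38.p6. The 250 bases before the start site are shown for Wnt9a and Fzd5, the ligand and the receptor whose levels moved most alike over the pools, and for Axin2, the target gene. Sequences are 5′ to 3′ on the strand of the gene, and capitals mark the matches to the motifs searched.
Wnt9a (chr11:59306680-59306929, + strand): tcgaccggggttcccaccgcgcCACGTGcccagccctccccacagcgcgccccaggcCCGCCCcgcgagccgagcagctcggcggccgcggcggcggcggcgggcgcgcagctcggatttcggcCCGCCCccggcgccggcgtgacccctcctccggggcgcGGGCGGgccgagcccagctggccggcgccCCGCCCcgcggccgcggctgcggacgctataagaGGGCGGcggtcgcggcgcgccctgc
Fzd5 (chr1:64737751-64738000, - strand): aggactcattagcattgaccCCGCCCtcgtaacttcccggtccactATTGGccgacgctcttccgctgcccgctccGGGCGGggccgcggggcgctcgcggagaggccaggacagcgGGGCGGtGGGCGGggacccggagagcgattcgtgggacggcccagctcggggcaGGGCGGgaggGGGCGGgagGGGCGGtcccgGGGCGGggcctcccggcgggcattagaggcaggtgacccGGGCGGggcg
Axin2 (chr11:108920099-108920348, + strand): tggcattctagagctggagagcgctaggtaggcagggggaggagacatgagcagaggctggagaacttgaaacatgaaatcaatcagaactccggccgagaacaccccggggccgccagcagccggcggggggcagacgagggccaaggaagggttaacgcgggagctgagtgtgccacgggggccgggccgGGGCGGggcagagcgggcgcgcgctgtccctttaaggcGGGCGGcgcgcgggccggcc
These 3 promoters were rich in G and C, with 84.4% in Wnt9a, 76.4% in Fzd5 and 69.2% in Axin2, against a median of 52.4% over 32851 promoters. They held 48, 32 and 24 CG pairs, against a median of 6. Searched on both strands with overlapping matches counted, the GC box (GGGCGG) was found 5 times before Wnt9a, 9 times before Fzd5 and 2 times before Axin2. A GC box was present in 32.7% of all promoters. Fzd5 also held a CCAAT box (CCAAT), found in 33.8% of promoters, and Wnt9a an E-box (CACGTG), found in 6.02%. The core of the TCF/LEF motif (CTTTGA), present in 13.8% of all promoters, was not found in these 250 bases of any of the 7 genes, Axin2 included. The TATA box (TATAAA), present in 12.4%, was found before 1 of the 2 starts listed for Ctnnb1.

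Wnt9a and Fzd5 were several-fold lower in competent than in non-competent oocytes, and Wnt4 was low in nearly all pools. Ctnnb1 was moderately higher in competent oocytes. Lrp5 and Axin2 were highest at PND 40, and for both the pools of PND 16 large and PND 16 small overlapped. Fzd3, Fzd7, Lrp6 and Dvl2 differed by 0.23 or less on the log2 scale between the 2 groups. A gene was called where edgeR's quasi-likelihood test gave an adjusted p of at most 0.05 and the change was at least 1.5-fold. In competent vs. non-competent oocytes 3 of the 10 genes were called (Wnt4, Wnt9a and Fzd5), all lower, where 15.0% of all genes tested were called and 11.2% were called lower. The pools of the 2 groups did not overlap for 3 of the 10 genes (Wnt9a, Fzd5 and Ctnnb1), and this was so for 14.7% of all genes tested. Between single cohorts of 3 pools, the pools of many genes did not overlap, 18.1% of those tested in PND 16 small vs. PND 13, 45.5% in PND 16 large vs. PND 13 and 50.8% in PND 40 vs. PND 13. The shares were 31.5% in PND 16 large vs. PND 16 small, 43.9% in PND 40 vs. PND 16 small and 39.3% in PND 40 vs. PND 16 large. Nothing is read from these counts, since the genes were chosen on the same comparison.

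**Figure D1:**
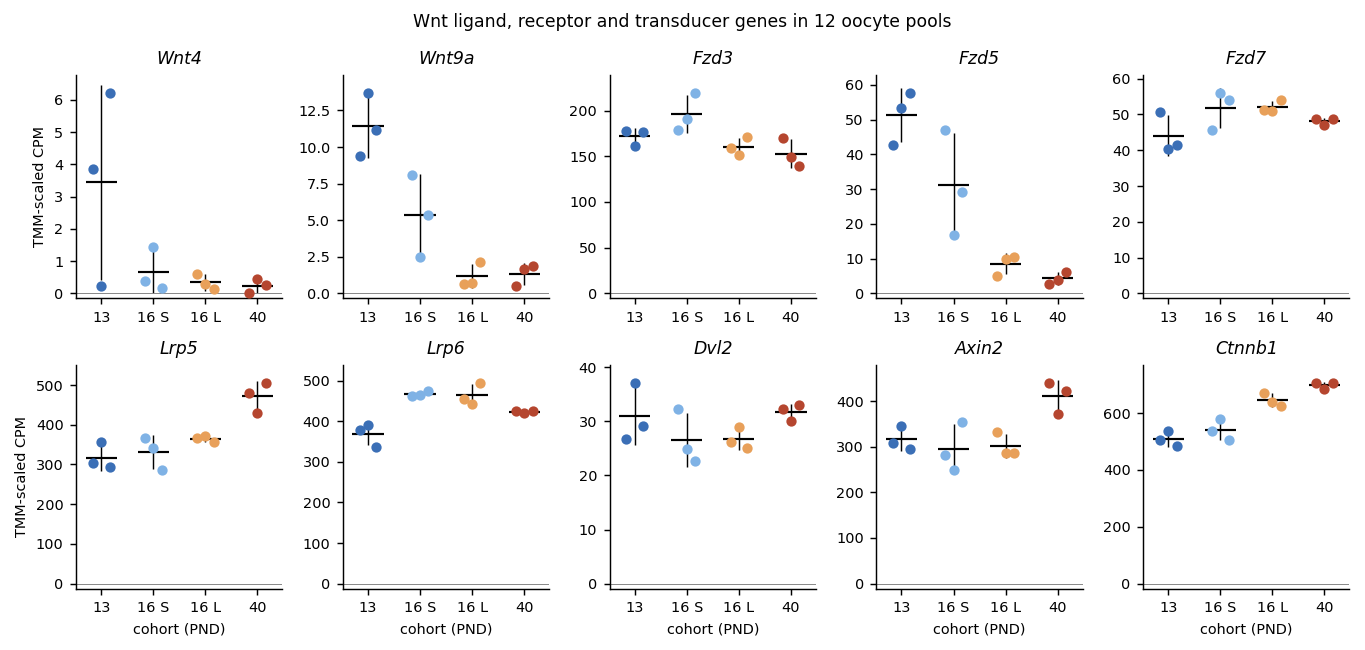
TMM-scaled CPM (vertical axes, linear, from 0) of the 10 genes in the 12 pools by cohort. Points are pools, horizontal lines are means of 3 pools and vertical lines ± 1 SD, cut at 0. Fzd5 lay between 16.9 and 57.8 CPM in the 6 non-competent pools and between 2.66 and 10.6 CPM in the 6 competent pools, while Ctnnb1 was at 626 CPM or more in all 6 competent pools.

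Wnt9a is a ligand known best from joint and blood stem cell development. At PND 13 its 3 pools were at 9.36, 13.7 and 11.2 CPM, and in PND 16 small at 8.12, 2.51 and 5.34 CPM. In PND 16 large they were at 0.655, 0.71 and 2.11 CPM, and at PND 40 at 0.472, 1.63 and 1.84 CPM. Each non-competent pool was above each competent pool, and within the non-competent group each PND 13 pool was above each PND 16 small pool. PND 13 was highest (11.4 ± 2.19 CPM), and PND 16 small (5.32 ± 2.80 CPM) was next. The pools of the lowest cohorts, PND 40 (1.31 ± 0.736 CPM) and PND 16 large (1.16 ± 0.825 CPM), overlapped. Competent vs. non-competent, the log2 fold change was -2.75 ± 0.44 (SE), a 6.74-fold lower level. The smallest pool held 11 reads of Wnt9a and the largest 351, so the low levels rest on few reads.

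Wnt4, the other ligand, was at 3.87, 0.234 and 6.22 CPM in the PND 13 pools and at 0.389, 1.42 and 0.178 CPM in PND 16 small. It was at 0.614, 0.276 and 0.119 CPM in PND 16 large and at 0, 0.438 and 0.257 CPM at PND 40. The counts behind these values were 81, 6 and 152 reads at PND 13 and between 0 and 30 reads in each of the other 9 pools. PND 13 replicates 1 and 3 and PND 16 small replicate 2 were the 3 highest pools, all other pools were below 1 CPM, and the cohorts overlapped. These 3 are the pools with the highest granulosa markers, and over the 12 pools the log2 CPM of Wnt4 correlated with the log2 of the summed granulosa markers with r = 0.824. The log2 fold change was -2.83 ± 0.91 in competent vs. non-competent oocytes. Without the 3 pools it was 0.09 ± 0.92, and Wnt4 was not called. Its call was also lost without PND 13 replicate 1 (-2.56) or 3 (-2.08), PND 16 large replicate 2 (-2.84) or 3 (-2.69), or PND 40 replicate 1 (-2.58) or 3 (-2.80).

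For Wnt9a and Fzd5 the pools were ordered as follows beside the granulosa markers. Among the 6 non-competent pools, PND 13 replicate 2 had the lowest granulosa sum (130 CPM) and the highest Wnt9a, and PND 16 small replicate 2 had the highest sum (544 CPM) and the lowest Wnt9a and Fzd5. The highest Fzd5 (57.8 CPM) was in PND 13 replicate 3, one of the pools rich in granulosa markers. The correlation with the granulosa sum over 12 pools was 0.394 for Wnt9a and 0.468 for Fzd5, and the difference from that of Wnt4 was not tested. Without the 3 pools, the log2 fold change in competent vs. non-competent oocytes was -2.86 ± 0.45 for Wnt9a and -2.75 ± 0.38 for Fzd5.

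**Figure D2:**
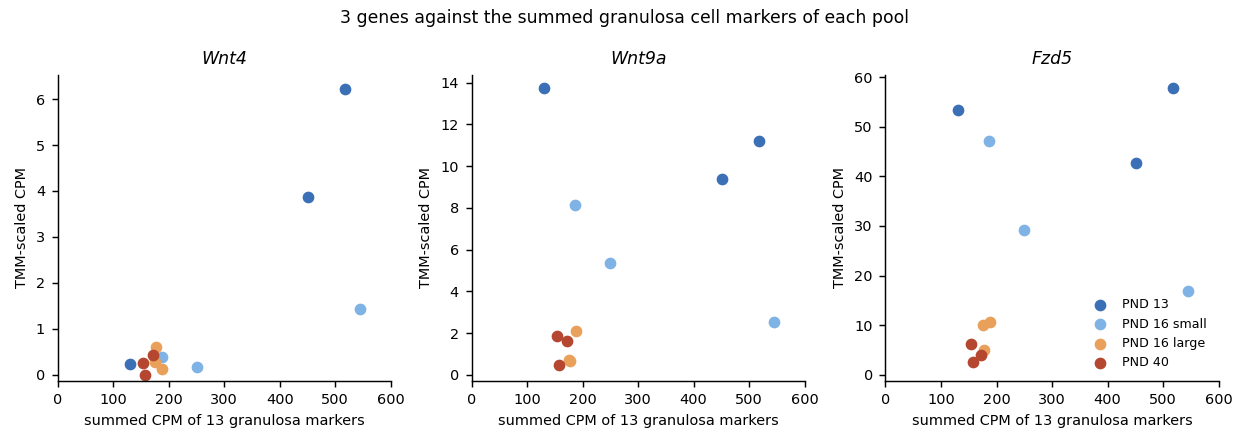
CPM of Wnt4, Wnt9a and Fzd5 (vertical axes) against the summed CPM of 13 granulosa cell markers (horizontal axes), 1 point for each of the 12 pools, coloured by cohort. The 3 pools with sums of 452 to 544 CPM are the 3 highest for Wnt4, whereas PND 13 replicate 2, at a sum of 130 CPM, has the highest Wnt9a (13.7 CPM) and the second highest Fzd5 (53.4 CPM).

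Among the 19 mouse Wnt ligand genes, Wnt9a was the most abundant before competence. Per kilobase of exon, a scale on which genes of different length can be compared, all 19 summed to 8.51 ± 2.02 CPM per kilobase at PND 13 and 4.40 ± 1.05 in PND 16 small. The sum was 2.41 ± 0.159 in PND 16 large and 3.4 ± 0.547 at PND 40. Wnt9a made up 41.9% ± 13.3 of the sum at PND 13 and 34.8% ± 12.4 in PND 16 small. In PND 16 large its share was 14.1% ± 9.04 and at PND 40 it was 11.1% ± 5.18. Wnt7a, a ligand of reproductive tract and brain development, had the largest share at PND 40, 40.1% ± 9.69, and Wnt8a in PND 16 large, 31.1% ± 0.549. Apart from Wnt9a and Wnt4, no ligand gene exceeded 5.40 CPM in any pool.

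Wnt7a did not separate by competence. It was at 3.06, 4.22 and 3.89 CPM at PND 13, at 2.38, 0.853 and 1.66 CPM in PND 16 small, at 1.06, 0.75 and 1.19 CPM in PND 16 large and at 4.50, 3.70 and 4.48 CPM at PND 40. Both PND 16 cohorts lay below all pools of PND 13 and PND 40. In PND 40 vs. PND 16 large Wnt7a rose, with a log2 fold change of 2.07 ± 0.37 (adjusted p = 0.00621, edgeR). It also rose in PND 40 vs. PND 16 small, by 1.37 ± 0.36 (adjusted p = 0.0118, edgeR), and fell in PND 16 large vs. PND 13, by 1.89 ± 0.37 on the log2 scale (adjusted p = 0.00308, edgeR). In PND 40 vs. PND 13 it differed by 0.18 ± 0.35 (adjusted p = 0.724, edgeR). Wnt7a was the only listed pathway gene called between the 2 competent cohorts, a comparison in which 3.66% of all genes were called.

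Fzd5 is a Frizzled receptor of the beta-catenin branch. Its 3 pools were at 42.7, 53.4 and 57.8 CPM at PND 13, and at 47.1, 16.9 and 29.2 CPM in PND 16 small. In PND 16 large they were at 4.99, 9.98 and 10.6 CPM and at PND 40 at 2.66, 3.94 and 6.25 CPM. No competent pool reached the lowest non-competent pool. PND 16 small spread over the widest range and overlapped with PND 13, and the pools of PND 16 large and PND 40 also overlapped. Competent vs. non-competent, the log2 fold change was -2.69 ± 0.37, a 6.43-fold lower level.

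Fzd3 and Fzd7, receptors linked to neural and to stem cell development, changed by less than 1.5-fold in each comparison. Fzd3 lay between 161 and 178 CPM at PND 13 and between 179 and 219.7 CPM in PND 16 small. In the competent cohorts it was at 151 to 171 CPM (PND 16 large) and 139 to 169.9 CPM (PND 40). Its highest cohort was PND 16 small (196.5 ± 20.9 CPM), whose 3 pools were above all other pools, and the pools of its other neighbouring cohorts overlapped. Fzd7 lay between 40.4 and 56.1 CPM in all pools, with cohort means from 44.1 ± 5.62 CPM at PND 13 to 52.1 ± 1.77 CPM in PND 16 large, and each neighbouring pair of cohorts in that order overlapped. The log2 fold change in competent vs. non-competent oocytes was -0.23 ± 0.08 for Fzd3 and 0.06 ± 0.09 for Fzd7. By adjusted p alone, with no fold criterion, Fzd3 passed toward the lower level there, as did 16.5% of all genes. Lrp5 and Ctnnb1 passed there toward the higher level, as did 14.2% of all genes. Fzd3 also passed in PND 40 vs. PND 16 small (-0.36), where 30.2% of all genes passed in either direction.

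The place of each receptor in the Frizzled family can be read per kilobase. Per kilobase of exon, the 10 Frizzled genes summed to 33.9 ± 1.30 CPM per kilobase at PND 13, 33.5 ± 1.79 in PND 16 small, 26.6 ± 1.32 in PND 16 large and 24.5 ± 1.25 at PND 40. Fzd5 made up 21.9% ± 3.35 of this sum at PND 13 and 13.3% ± 6.43 in PND 16 small. Its share was 4.58% ± 1.52 in PND 16 large and 2.56% ± 1.15 at PND 40. Fzd3 had the largest share in each cohort, 39.6% ± 0.968 at PND 13 and 48.6% ± 3.02 at PND 40, followed by Fzd7 with 28.7% ± 3.44 and 43.5% ± 1.80. At PND 40 the pair of Fzd3 and Fzd7 thus carried most of the Frizzled transcript level, and the other 8 genes were each at 2.56% or less.

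**Figure D3:**
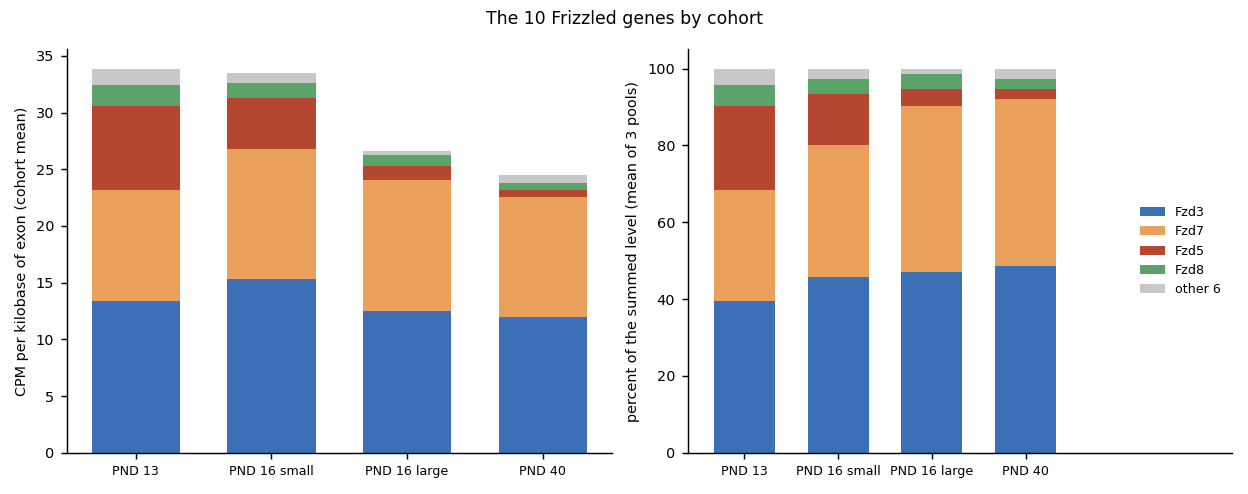
The 10 Frizzled genes by cohort (mean of 3 pools), stacked as CPM per kilobase of exon on the left and as percent of the family's summed level on the right, both from 0. The Fzd5 segment makes up 21.9% of the sum at PND 13 and 2.56% at PND 40, while the Fzd3 segment lies between 11.9 and 15.4 CPM per kilobase in all cohorts.

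The co-receptors Lrp5 and Lrp6 were far more abundant than any Frizzled. Lrp5 was at 303, 355 and 293 CPM at PND 13, at 367, 342 and 285 CPM in PND 16 small, at 367, 371 and 356 CPM in PND 16 large and at 479, 430 and 506 CPM at PND 40. The 3 PND 40 pools stood above all others, and the remaining neighbouring cohorts overlapped. Its log2 fold change was 0.57 ± 0.10 in PND 40 vs. PND 13, just under the 1.5-fold criterion, and 0.37 ± 0.10 in competent vs. non-competent oocytes. For PND 16 large, the log2 fold change of Lrp5 was 0.20 vs. PND 13 and 0.14 vs. PND 16 small. Lrp6 was lowest at PND 13, at 338 to 392 CPM. In PND 16 small it was at 463 to 474 CPM, in PND 16 large at 444 to 496 CPM, with overlap between them, and at 421 to 426 CPM at PND 40. Its PND 13 pools were below all others, and the PND 40 pools were below both PND 16 cohorts. The log2 fold change of Lrp6 was 0.34 ± 0.07 in PND 16 small vs. PND 13 and 0.09 ± 0.08 in competent vs. non-competent oocytes. Per kilobase, Lrp5 made up 54.6% ± 1.59 of the sum of the pair at PND 13, 49.7% ± 3.60 in PND 16 small, 52.5% ± 1.98 in PND 16 large and 60.9% ± 1.83 at PND 40.

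Dvl2 is one of the 3 Dishevelled proteins that pass the signal on from the receptor. It lay between 22.7 and 37.2 CPM in the 12 pools, with cohort means lowest in PND 16 small (26.6 ± 5.02 CPM) and highest at PND 40 (31.8 ± 1.5 CPM), and neighbouring cohorts overlapped. The log2 fold change was 0.02 ± 0.12 in competent vs. non-competent oocytes. Per kilobase, Dvl2 held 16.4% ± 2.21 to 19.9% ± 2.02 of the family in each cohort, and Dvl3 held the most, from 60.0% ± 4.64 at PND 13 to 72.9% ± 2.78 at PND 40. Dvl1, not among the 10 genes, fell in competent oocytes, from 23.7 to 10.1 CPM on average (log2 fold change -1.23 ± 0.26, adjusted p = 0.00272, edgeR). The groups overlapped, with PND 40 replicate 2 at 15.45 CPM and PND 16 small replicates 2 and 3 at 13.84 and 14.18 CPM. Dvl1 was not called in PND 40 vs. PND 16 small.

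Axin2, a scaffold of the destruction complex and a target of beta-catenin in many tissues, was at 308, 347 and 296 CPM at PND 13 and at 283, 250.3 and 355 CPM in PND 16 small. It was at 332, 288 and 286 CPM in PND 16 large and at 441, 372 and 422 CPM at PND 40. The PND 40 pools were above all others, and the first 3 cohorts overlapped. The log2 fold change was 0.45 ± 0.12 in PND 40 vs. PND 16 large and 0.22 ± 0.12 in competent vs. non-competent oocytes. Per kilobase, Axin2 made up 62.0% ± 6.41 to 66.5% ± 1.43 of the summed level of Axin1 and Axin2.

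Ctnnb1 encodes beta-catenin, which also links cadherins to the cytoskeleton at cell contacts. It was at 505, 539 and 483 CPM at PND 13, at 538, 581 and 506 CPM in PND 16 small, at 673, 640.2 and 626 CPM in PND 16 large and at 707, 686 and 705 CPM at PND 40. All 6 competent pools were above all 6 non-competent pools, and the PND 40 pools were above the PND 16 large pools. PND 13 and PND 16 small overlapped. The log2 fold change was 0.36 ± 0.06 in competent vs. non-competent oocytes, a 1.28-fold higher level, and 0.46 ± 0.07 in PND 40 vs. PND 13. Per kilobase Ctnnb1 was the most abundant of the 10 genes, from 98.0 ± 5.39 CPM per kilobase at PND 13 to 135 ± 2.21 at PND 40. Without the 3 pools rich in granulosa markers, the log2 fold change was 0.36 ± 0.07 in competent vs. non-competent oocytes.

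In the 6 pairwise comparisons, Wnt9a and Fzd5 were called in each of the 4 that set a competent against a non-competent cohort. Of the 10 genes, none was called in PND 16 small vs. PND 13, where 0.373% of all genes were called, and none in PND 40 vs. PND 16 large (background 3.66%). In PND 16 large vs. PND 13, 2 were called (background 13.3%, and 9.80% lower), and in PND 40 vs. PND 13, 3 with Wnt4 (background 18.9%, and 12.6% lower). In PND 16 large vs. PND 16 small 2 were called (background 6.19%, and 4.76% lower), as in PND 40 vs. PND 16 small (background 17.2%, and 10.3% lower). All of these calls were toward the lower level in the competent cohort. By adjusted p alone, with no fold criterion, Lrp5 and Axin2 passed toward the higher level in PND 40 vs. PND 16 large, as did 3.59% of all genes. Also toward the higher level, Lrp6 passed in PND 16 small vs. PND 13 and Ctnnb1 in PND 16 large vs. PND 16 small. Lrp6 and Ctnnb1 passed in PND 16 large vs. PND 13, and with Lrp5 and Axin2 in PND 40 vs. PND 13. Lrp5, Axin2 and Ctnnb1 passed in PND 40 vs. PND 16 small. In this order, 0.925%, 12.3%, 25.6%, 33.1% and 30.2% of all genes passed in either direction. The comparisons share cohorts and are not independent of each other. The call of Wnt9a in PND 16 large vs. PND 16 small was lost without PND 16 small replicate 1 (-1.74) or 3 (-2.19) or PND 16 large replicate 1 (-1.91) or 2 (-1.93), and in the fit of only these 2 cohorts (-2.19). That of Fzd5 was lost without PND 16 large replicate 1 (-1.60) or 2 (-1.99). In PND 40 vs. PND 16 small, the call of Wnt9a was lost without PND 16 small replicate 1 (-1.55) or PND 40 replicate 1 (-1.61). The call of Wnt4 in PND 40 vs. PND 13 (-3.85 ± 1.21) was lost without PND 13 replicate 1 (-3.75) or 3 (-3.10) or PND 40 replicate 1 (-3.29), 2 (-4.63) or 3 (-3.91). It was also lost under 4 of 9 alternatives, of which the alternative without the fold criterion could not end a call. Without the 3 pools rich in granulosa markers the value of Wnt4 was -0.0026. DESeq2 called 2 members that edgeR did not, Fzd5 in PND 40 vs. PND 16 large (log2 fold change -0.9995) and Wnt4 in PND 16 large vs. PND 13 (-3.36). The latter was also called with the stricter count filter and without PND 13 replicate 2, PND 16 small replicate 2 or PND 40 replicate 1.

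**Figure D4:**
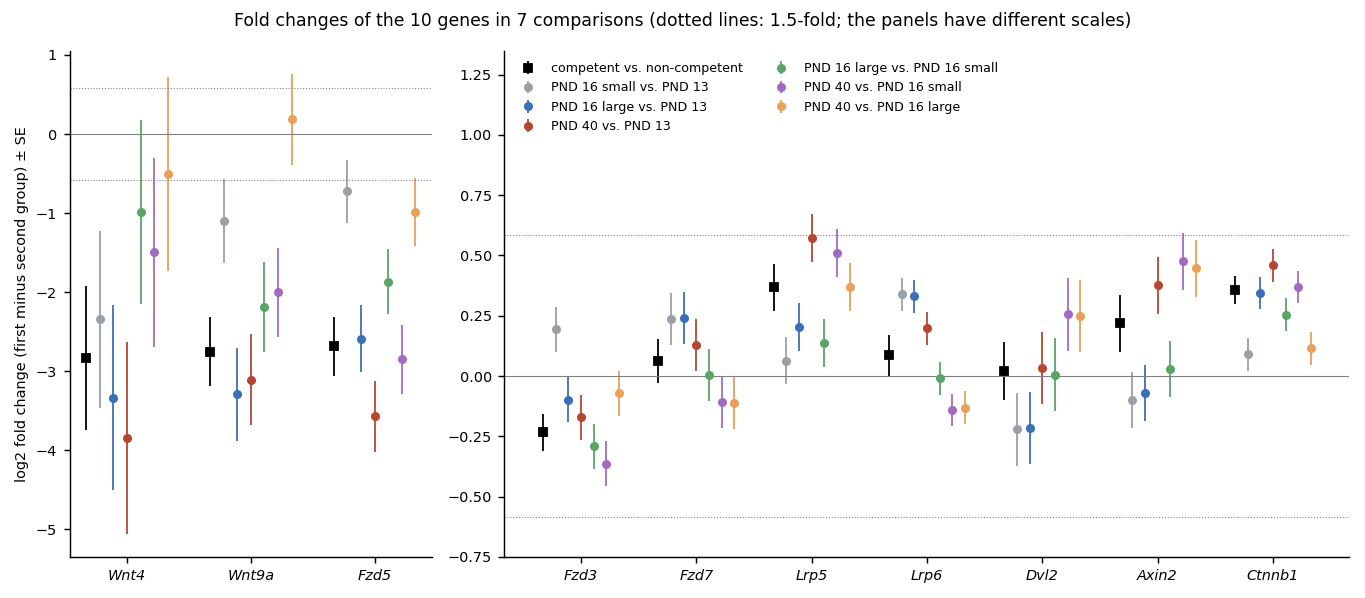
Log2 fold change ± SE (vertical axes) of the 10 genes in competent vs. non-competent oocytes (squares, 6 pools each) and in the 6 pairwise comparisons (circles, 3 pools each), with dotted lines at 1.5-fold. Wnt4, Wnt9a and Fzd5 are on a wider scale at the left, where Wnt9a and Fzd5 lie at or below -1.87 in the 4 comparisons of a competent with a non-competent cohort, and no value of the 7 genes at the right reaches 1.5-fold.

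Over the 12 pools, the log2 CPM of Wnt9a and Fzd5 correlated with r = 0.931, and that of Fzd5 and Ctnnb1 with r = -0.951. These are descriptions over pools of 4 cohorts, and the values of 2 genes in a pool share its library depth and cohort. The relation of Fzd5 to Ctnnb1 is of opposite sign. In a search of the 11947 genes that averaged 1 CPM or more, the 2 most like each gene by Pearson's r were Map7d1 (0.992) and Lemd2 (0.991) for Fzd5, and Zyg11b (0.962) and Tmem167b (0.959) for Wnt9a. For Ctnnb1 they were Nelfa (0.986) and Rubcn (0.983), for Lrp5 Ppard (0.972) and Spg20 (0.966), and for Lrp6 Nlrp9a (0.964) and Tarsl2 (0.957). For Fzd7 they were Sema3d (0.958) and Kdm6b (0.954), for Dvl2 Ccdc30 (0.947) and Smurf1 (0.942), and for Wnt4 Gucy1b3 (0.946) and Gtf2i (0.917). Fzd3 was most like Rnf168 (0.938) and Drosha (0.917), and Axin2 most like Rpp38 (0.918) and Notch1 (0.904).

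Beyond the 10 genes, 101 other genes of the pathway were listed by role, and 72 of them had enough counts to be tested. In competent vs. non-competent oocytes 13 of the 72 fell and none rose (18.1%, where 11.2% of all genes fell and 3.78% rose). The median log2 fold change of the 72 genes was -0.37, and that of all genes tested -0.0046. By adjusted p alone, 18 were lower and 12 higher, where the background was 16.5% lower and 14.2% higher.

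**Figure D5:**
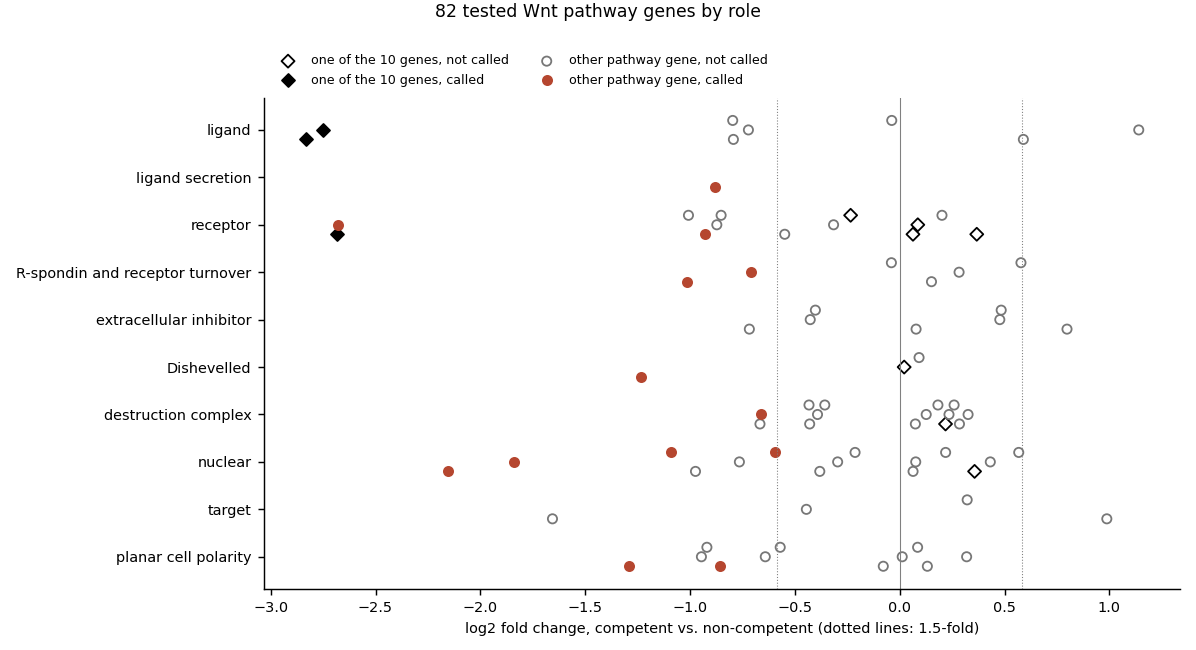
Log2 fold change in competent vs. non-competent oocytes (horizontal axis) of 82 tested Wnt pathway genes grouped by role (vertical axis, with points offset so that they can be told apart). Diamonds are the 10 genes described above and circles other genes, filled where called, and dotted lines mark 1.5-fold. All filled symbols, 3 diamonds and 13 circles, lie left of 0.

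Among other receptors, 2 of the 8 tested fell. Fzd1 fell from 2.17 to 0.336 CPM on average (log2 fold change -2.68 ± 0.41, adjusted p = 0.000344, edgeR), with all competent pools at 0.438 CPM or less and all non-competent pools at 1.19 CPM or more. Fzd8 fell from 9.44 to 4.96 CPM (-0.93 ± 0.29, adjusted p = 0.0233, edgeR), with overlap between the groups, and its call was lost without PND 13 replicate 3 (-0.80), without PND 40 replicate 1 (-0.83) and without the 3 pools rich in granulosa markers (-0.96). Ryk, a kinase-like co-receptor, was at 103 and 89.8 CPM in competent and non-competent oocytes (0.20 ± 0.07). Ptk7 was at 1.77 and 3.21 CPM (-0.85 ± 0.52) and Ror1 at 1.37 and 2.76 CPM (-1.01 ± 0.46), and neither was called. None of the 6 other ligand genes tested was called, with Wnt5a at 1.85 and 3.20 CPM and Wnt8a at 1.16 and 2.02 CPM in the competent and non-competent groups. Wls, which carries Wnt proteins to the cell surface, fell from 48.9 to 26.5 CPM (-0.88 ± 0.15, adjusted p = 0.00066, edgeR).

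R-spondins raise Wnt signalling by binding Lgr receptors and removing Znrf3 and Rnf43, the ubiquitin ligases that clear Frizzled from the membrane. Of the 6 genes of this group that were tested, 2 fell. Lgr4 fell from 51.1 to 25.3 CPM (-1.01 ± 0.14, adjusted p = 0.000132, edgeR) and Znrf3 from 67.6 to 41.4 CPM (-0.71 ± 0.11, adjusted p = 0.000379, edgeR). Rnf43 was at 27.6 CPM in competent and 18.5 CPM in non-competent oocytes (0.58 ± 0.14, adjusted p = 0.00607, edgeR), short of 1.5-fold. It was called higher with limma (0.61) and in 5 of 12 fits that left out a pool (0.59 to 0.63). Rspo2 was the most abundant of the group, at 585 to 755 CPM in all pools (0.15 ± 0.05), and Lgr6 was at 66.8 and 54.9 CPM (0.28 ± 0.11). None of the 7 extracellular inhibitors tested was called. The most abundant was Kremen1, a receptor for Dickkopf inhibitors, at 250.2 and 179 CPM (0.48 ± 0.09, adjusted p = 0.000967, edgeR). It was followed by Sost at 12.2 and 16.1 CPM (-0.40 ± 0.12) and Dkk3 at 9.6 and 12.9 CPM (-0.43 ± 0.28).

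Of the 13 other genes of the destruction complex, all tested, 1 fell. Gsk3b, a kinase that phosphorylates beta-catenin, fell from 125 to 79.2 CPM (-0.66 ± 0.08, adjusted p = 6.58e-05, edgeR). The casein kinases Csnk1e (442 and 352 CPM, 0.33 ± 0.07) and Csnk1a1 (326 and 287 CPM, 0.18 ± 0.06) and the scaffold Apc (374 and 343 CPM, 0.13 ± 0.11) were more abundant in both groups and were not called. Among nuclear factors, 4 of 14 fell. They were Tcf7l2, a TCF factor, from 18.7 to 8.77 CPM (-1.09 ± 0.19, adjusted p = 0.000823, edgeR), and the co-repressors Tle2, Tle3 and Tle4. Tle4 fell from 166 to 110.2 CPM (-0.59 ± 0.10, adjusted p = 0.000531, edgeR), and its call was lost without PND 13 replicate 3 (-0.57), PND 16 small replicate 1 (-0.57) or PND 40 replicate 1 (-0.53), 2 (-0.58) or 3 (-0.56). Tle2 and Tle3 were under 1 CPM on average and are named because they complete this count. For both, the competent and non-competent pools overlapped. Tle2 was highest in the 3 pools rich in granulosa markers, at 0.9006 to 3.889 CPM. In PND 13 replicate 2 it was at 0.3907 CPM, against up to 0.5879 CPM in the competent pools. Tle3 was highest in PND 16 small replicate 3 (1.839 CPM), which is not one of these pools. The part of the granulosa markers in the calls of Tle2 and Tle3 was not tested. Bcl9 was at 156 and 134 CPM, Pygo2 at 49.9 and 61.2 CPM and Tcf7 at 55.9 and 53.5 CPM, and none of these was called. None of the 4 target genes tested was called, and Nkd1, the most abundant, was at 247 and 197 CPM (0.32 ± 0.10).

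Planar cell polarity genes orient cells through Frizzled without beta-catenin, and 2 of the 11 tested fell. Prickle2 fell from 81.3 to 44.9 CPM (-0.86 ± 0.12, adjusted p = 0.000234, edgeR) and Celsr2 from 7.90 to 3.23 CPM (-1.29 ± 0.25, adjusted p = 0.00168, edgeR). Celsr1 (664 and 701 CPM, -0.08 ± 0.10), Prickle1 (580.2 and 530 CPM, 0.13 ± 0.06) and Daam1 (351 and 282 CPM, 0.32 ± 0.14) were more abundant and were not called.

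In the pairwise comparisons, none of the 72 other genes was called in PND 16 small vs. PND 13, where 0.373% of the genes tested were called. In PND 16 large vs. PND 13, 14 were called (19.4%, background 13.3%), of which 13 fell (background 9.80%). In PND 40 vs. PND 13, 19 were called (26.4%, background 18.9%), of which 15 fell (background 12.6%). For PND 16 large vs. PND 16 small, 7 were called (9.72%, background 6.19%), of which 6 fell (background 4.76%). In PND 40 vs. PND 16 small, 13 were called (18.1%, background 17.2%), of which 10 fell (background 10.3%). By adjusted p alone, 1 passed in PND 16 small vs. PND 13, as did 0.925% of the genes tested. Without PND 16 large replicate 1, none of the 72 was called in PND 16 large vs. PND 16 small. In that fit the share of all genes called also fell, to 2.33%. The 4 that rose in PND 40 vs. PND 13 were Daam1, a regulator of actin, Rnf43, Lef1, a TCF/LEF factor, and Kremen1, named after their values were seen (6.31% of all genes rose). Daam1 rose by 0.76 ± 0.11 on the log2 scale (adjusted p = 0.000209, edgeR), from 226 to 381 CPM. Rnf43 rose by 0.71 ± 0.19 (adjusted p = 0.013, edgeR), Lef1 by 0.62 ± 0.17 (adjusted p = 0.0155, edgeR) and Kremen1 by 0.61 ± 0.11 (adjusted p = 0.00149, edgeR). Without the 3 pools rich in granulosa markers, which leaves 1 PND 13 pool that is assumed to vary like the other cohorts, Rnf43, Lef1 and Kremen1 were not called, with log2 fold changes of 0.35, 0.80 and 0.34. Calls were also lost for Rnf43 without PND 13 replicate 3 (0.47), for Kremen1 without PND 13 replicate 1 (0.58) or 3 (0.50) and for Lef1 without PND 13 replicate 2 (0.51) or 3 (0.54) or PND 40 replicate 3 (0.53). Total-count scaling also ended the calls of Kremen1 (0.54) and Lef1 (0.54), and the fit of only these 2 cohorts that of Kremen1 (0.58).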

How the data were processed

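Oocyte RNA was sequenced by the authors from ribosome-depleted directional libraries, and the submitters' processing notes name FastQC, STAR, HTSeq, DESeq2 and HOMER with the build mm10. Versions and the strand setting of the counting are not given in the sources used here. The authors deposited raw counts of reads per gene, without normalization. They also deposited log2 values, in which counts had been scaled by 1 factor per pool and offset by 1 before the log (checked, that factor being constant within a pool to 7.04e-12%). Samples were grouped by their labels, and all 12 were used. Pools of a cohort differed by more than sampling noise (chi-square per gene 9.24 to 50.2), so none was counted as a repeat. The study's results describe 3 independent pools per condition, with oocytes from 3 mice. Its methods say only that the pooled oocytes of a cohort were frozen in 3 replicates. The labels do not tie a pool to an animal, and p-values measure the spread between these pools.

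Low counts were filtered with filterByExpr of edgeR (minimum count 10) and pools scaled by TMM (factors 0.955 to 1.07). In R 4.3.3, edgeR 4.0.16 fitted 1 robust quasi-likelihood model of the 4 cohorts for the 6 pairwise comparisons and 1 model of the 2 groups for competent vs. non-competent oocytes. Benjamini-Hochberg adjustment ran over all 13943 genes tested, and the code was tested on simulated data. Standard errors were derived as the size of the log2 fold change over the root of F. For correlations, log2 CPM had a prior count of 2. Figures and lengths used Python 3.11.15, numpy 2.4.6, pandas 2.3.3 and matplotlib 3.10.9. Alternatives used DESeq2 1.42.0 and limma 3.58.1, other scalings and filters, fits of only the cohorts compared, no fold criterion, a replicate block and leaving out each pool. An alternative without the 3 pools richest in granulosa markers was chosen after seeing the data.

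The 10 genes and the lists were chosen with earlier results of these data known. The rule named all 10 genes, up to 12 other pathway genes that averaged 1 CPM or more and were called in competent vs. non-competent oocytes, up to 3 further genes of each role with the highest mean, and the 2 genes most correlated with each of the 10. Pairwise values of other pathway genes were added after their values were seen. Lengths are unions of exons in GENCODE M21 on GRCm38, and the isoforms counted are not known. In that annotation Wnt4 lies on chromosome 4 (137277489 to 137299726, + strand), Wnt9a on 11 (59306928 to 59333552, +), Fzd3 on 14 (65192449 to 65262463, -), Fzd5 on 1 (64730558 to 64737751, -) and Fzd7 on 1 (59482424 to 59486955, +). Lrp5 lies on 19 (3584828 to 3686564, -), Lrp6 on 6 (134446476 to 134566965, -), Dvl2 on 11 (70000595 to 70012301, +), Axin2 on 11 (108920349 to 108950783, +) and Ctnnb1 on 9 (120929216 to 120960507, +). All 10 are protein-coding. Exons of Fzd5, Dvl2, Axin2 and Ctnnb1 overlap genes on the opposite strand (Gm38058, Acadvl, Gm11670 and Ulk4), from which their reads cannot be told apart if counting ignored strand.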

Additional observations from a re-analysis of the deposited data

Results flagged for a closer look

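Celsr2 in PND 13 replicate 3 was at 14.5 CPM, far above the other 5 non-competent pools, of which the nearest was at 8.05 CPM and the lowest at 5.40 CPM. The gap to the nearest pool was 0.708 of the whole range, above the critical value of Dixon's test for 6 pools. Of 42 groups of 6 pools tested in this way, 1 was singled out, and chance does so for about 1 in 20 groups. Celsr2 was called lower in competent oocytes with and without this pool.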

How the results depend on the processing

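In competent vs. non-competent oocytes, 3 of the 10 genes were called, with 2 to 3 when each pool was left out in turn, and 13 of the other pathway genes, with 9 to 17. Of the latter none rose, against 1 with DESeq2, limma, the stricter count filter or cohort means, and 0 to 2 without each pool. Summed over the 6 pairwise comparisons, the calls were 9 (7 to 11) and 54 (44 to 65). Without the 1.5-fold criterion the 4 counts were 6, 30, 23 and 99, and under the other alternatives they stayed within 1.5 times. Wnt9a and Fzd5 kept their calls in competent vs. non-competent oocytes under all 9 alternatives run and without each pool. Of the 9, the alternative without the fold criterion is the main fit under a looser rule, so it could not end a call. Both genes were chosen with this comparison known. The call of Wnt4 was lost in 6 of 12 fits that left out a pool (PND 13 replicates 1 and 3, PND 16 large replicates 2 and 3, and PND 40 replicates 1 and 3), with limma and with the replicate block. Its call in PND 40 vs. PND 13 was lost in 5 of these 12 fits (PND 13 replicates 1 and 3 and each PND 40 pool) and under 4 of 9 alternatives.

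Without the 3 pools richest in granulosa markers, Wnt4 had log2 fold changes of the other sign in competent vs. non-competent (0.0881), PND 16 small vs. PND 13 (0.28), PND 16 large vs. PND 13 (0.51) and PND 16 large vs. PND 16 small (0.23), where it was -1.73 to 0.22 when each pool was left out in turn, the latter without PND 16 small replicate 2. The sign also turned for Lrp5 (-0.13) and Ctnnb1 (-0.0484) in PND 16 small vs. PND 13, for Dvl2 (-0.22) in PND 40 vs. PND 13 and for Ptk7 (0.33) in competent vs. non-competent oocytes. Values near 0 changed sign for Dvl2 (0.02 to -0.0661) and Celsr1 (-0.08 to 0.0169) in competent vs. non-competent oocytes and for Dvl2 (0.0059 to -0.034) and Axin2 (0.0289 to -0.0708) in PND 16 large vs. PND 16 small. Without these pools, 2 of the 10 genes and 11 others were called in competent vs. non-competent oocytes, where 10.7% of all genes were called. Total-count scaling moved the median of all genes by -0.12 in PND 16 small vs. PND 13, where Ctnnb1 was then at -0.0071, and by -0.13 in PND 16 large vs. PND 13. Beyond the fits themselves, the cause was not tested. With the replicate number as a block, 2 of the 10 genes and 11 others were called in competent vs. non-competent oocytes, and 8 and 47 summed over the pairwise comparisons. Same-numbered pools did not deviate together (mean correlation of deviations -0.25 to 0.04), so the numbers do not pair the pools. At the depth of these pools the levels of Wnt4, below 1 CPM in 9 of 12 pools, could not be ranked between the other cohorts.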
